A study of Homo sapiens with 6 samples.

Results

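Goblet cell secretory genes were followed in Caco2 cells, a human colon cancer line, with and without resistance to methotrexate (MTX), an antifolate drug. The list held 10 genes, AGR2, AGR3, TFF1, TFF2, TFF3, FCGBP, MUC2, HEPACAM2, ATOH1 and SPDEF, of the 11849 genes that could be tested. Total RNA of parental cells, sensitive to MTX, was hybridised to 3 Affymetrix HG U133 Plus 2.0 arrays, and RNA of cells selected stepwise until they grew in 10 µM MTX to another 3. Parental cells were grown in Ham's F12, and resistant cells, with dialyzed serum, in a medium without hypoxanthine, thymidine and glycine, so that medium and resistance cannot be told apart. Whether the resistant cells were 1 clone is not given in the sources used here, nor whether each array had a culture of its own, so errors and p-values cover the spread between these arrays alone, and it may be technical.

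The members were chosen by their role in goblet cells and by signals of these same arrays, with the resistant against parental differences known. Their values are therefore given as a description, and their calls support nothing by themselves. A probe set, the group of probes that reports a transcript, was read as signal over the median of its array. A change is the log2 difference resistant minus parental, ± SE, n = 3 arrays per group, from a fit with limma across 26563 probe sets whose mean reached 1 times the array median. For a call, the adjusted p had to be below 0.05 and the change 2-fold or more, and "rose" and "fell" are used of called genes only. Parental array 3 stood apart, as it correlated with the other parental arrays at 0.949 and 0.946 across probe sets where these correlated with each other at 0.966. It was also closer to the resistant arrays, at 0.939, 0.935 and 0.939, where parental arrays 1 and 2 gave 0.914 to 0.929. Several changes are also given without parental array 3. Levels of different probe sets are not on one scale and are not compared.

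Goblet cells are the mucus-secreting cells of the gut epithelium. They build gel-forming mucins in the endoplasmic reticulum, fold them with the help of disulfide isomerases, and release them together with small trefoil peptides that protect and repair the mucosa. ATOH1 is the basic helix-loop-helix factor that commits intestinal progenitors to the secretory lineages, and SPDEF is an ETS family factor that acts after it in the maturation of goblet cells. Caco2 cells are better known for taking on features of enterocytes, the absorptive cells.

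Of the 10 genes, 7 rose in the resistant cells, TFF2 fell, and MUC2 and SPDEF were not called in their brightest probe set. Of all tested genes, 3.37% rose and 2.17% fell. The members had 15 probe sets, of which 14 passed the filter on low signals with at least 1 for each of the 10 genes. MUC2, FCGBP, HEPACAM2 and ATOH1 passed only through their resistant signals, as their parental means lay below the array median. Of these 14, 8 were called higher and 1 lower, where 2.77% and 1.9% of all tested probe sets were. The groups did not overlap for 13 of the 15, with resistant arrays above for 11 and below for 2, where this held for 17.7% and 14.4% of all tested probe sets. Nothing is read from these counts, since the genes were picked with the comparison in view. By the methods' t-test, run here with equal variances on the values and filter of the limma fit and without the error model and filter of the study's software, 3 of the 9 calls were kept, those of AGR3, HEPACAM2 and the dimmer AGR2 probe set. The median change of the 10 genes was 2.05, and that of all tested genes 0.015. In RNA of whole cultures, a larger share of cells that express a gene and more RNA per cell cannot be told apart.

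**Figure D1:**
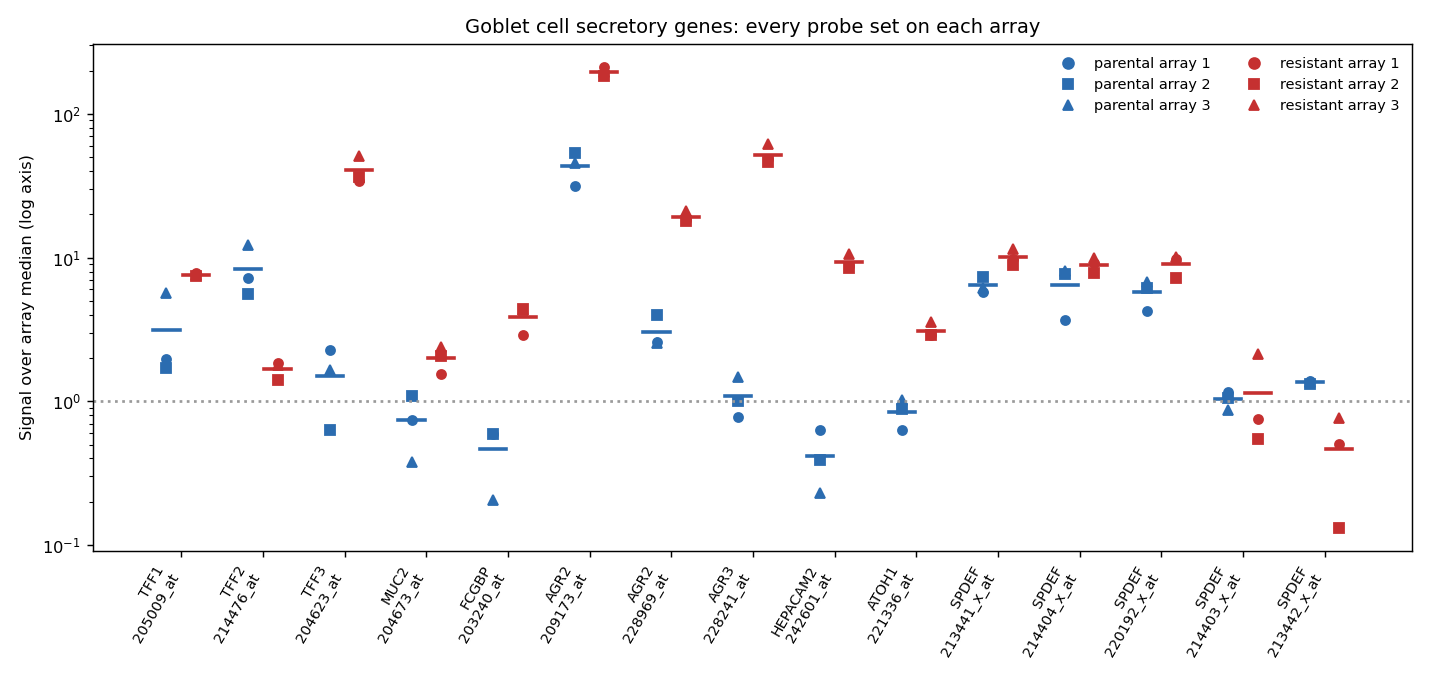
Signal over the array median (log axis) of each probe set of the 10 genes on each array, with parental arrays in blue, resistant arrays in red, a marker shape for each replicate number, bars at group means and a dotted line at the array median. The red markers lie apart from the blue ones for 13 of 15 probe sets, above them for 11 and below them for 2, and TFF2 (8.36 to 1.69) goes the opposite way from its neighbours TFF1 and TFF3.

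The largest change was that of AGR3. AGR2 and AGR3 encode related proteins of the disulfide isomerase family in the endoplasmic reticulum, of which AGR2 is known to be needed for making mucin in goblet cells. The signal of AGR3 (probe set 228241_at) was 0.775, 1.00 and 1.48 times the array median on parental arrays 1 to 3, and resistant arrays 1 to 3 gave 48.8, 46.0 and 61.5. It lay near the array median in all parental cells, and its 49.4-fold rise (5.63 ± 0.24) was the 7th largest increase of the 26563 probe sets. With an offset of 0.5 array medians added to all signals the rise was 33.5-fold, and the rank was taken without it. The main probe set of AGR2 (209173_at) gave 31.7, 53.4 and 45.4 in parental and 212, 184 and 195 in resistant cells, a 4.62-fold rise (2.21 ± 0.18). A dimmer AGR2 probe set (228969_at) went from 2.58, 3.98 and 2.56 to 18.4, 18.1 and 21.2, a 6.46-fold rise (2.69 ± 0.20). In parental cells AGR2 thus lay above the array median and AGR3 near it, and for both genes the resistant arrays were far above the parental ones, by at least 1.78 on the log2 scale between the nearest arrays.

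The 3 trefoil factor genes, which lie side by side on chromosome 21, did not move as one. TFF3, the trefoil peptide of intestinal goblet cells, gave 2.26, 0.633 and 1.64 in parental and 33.9, 36.2 and 51.1 in resistant cells, and rose 29.9-fold (4.90 ± 0.40). The rise of TFF3 was 21.4-fold with the offset, 20.6-fold without parental array 2 and 39.0-fold without parental array 1. TFF1, a trefoil peptide of the gastric surface, gave 1.98, 1.70 and 5.65 in parental and 7.79, 7.39 and 7.55 in resistant cells, and rose 2.83-fold (1.50 ± 0.38). TFF2, the trefoil peptide of gastric gland mucus, gave 7.23, 5.59 and 12.2 in parental and 1.86, 1.41 and 1.80 in resistant cells, and fell 4.72-fold (-2.24 ± 0.29). TFF2 was therefore the only member whose called change was a decrease, and its groups did not overlap. Parental array 3 had the highest parental signal of both TFF1 and TFF2. Without this array TFF1 was 4.12-fold higher and TFF2 3.79-fold lower. The call of TFF1 ended when any array other than parental array 3 was left out, with changes of 2.44-fold and 2.26-fold without parental arrays 1 and 2 and of 2.79, 2.87 and 2.84-fold without resistant arrays 1, 2 and 3. It also ended without the filter and without the intensity trend in the variance.

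The RNA signals of MUC2 and FCGBP, genes of mucus proteins, lay near or below the array median in parental cells. MUC2, the main gel-forming mucin of the colon, gave 0.739, 1.09 and 0.381 in parental and 1.54, 2.07 and 2.38 in resistant cells. The groups did not overlap, but the difference of 1.54 ± 0.47 was not called, and both groups stayed within a few array medians. FCGBP, a large protein of the mucus gel that binds to MUC2, gave 0.595, 0.594 and 0.204 in parental and 2.90, 4.41 and 4.33 in resistant cells, and rose 9.17-fold (3.20 ± 0.48). All its parental signals lay below the array median, where array signals carry most noise, and with an offset of 0.5 array medians added to all signals the rise was 4.57-fold. With the same offset MUC2 was 2.06-fold higher and past the threshold.

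HEPACAM2, an immunoglobulin domain protein, gave 0.631, 0.391 and 0.230 in parental cells and 8.80, 8.40 and 10.6 in resistant cells. It rose 24.0-fold (4.58 ± 0.37), from below the array median on every parental array, and 10.8-fold with the offset. FCGBP, MUC2 and HEPACAM2 each had their lowest signal on parental array 3, and without that array they were 6.41, 2.19 and 18.6-fold higher.

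The transcription factors were read next, to see whether they moved with the effectors. ATOH1 gave 0.631, 0.883 and 1.02 in parental and 2.87, 2.87 and 3.56 in resistant cells, and rose 3.73-fold (1.90 ± 0.31). Its parental signals were at or below the array median, its groups were separate by 1.49 on the log2 scale, and with the offset it was 2.69-fold higher. SPDEF was read by 5 probe sets, all of a type whose probes can match other transcripts too. Its brightest (213441_x_at) gave 5.78, 7.35 and 6.11 in parental and 9.79, 8.91 and 11.5 in resistant cells, 1.57-fold higher (0.65 ± 0.17), which is short of the 2-fold needed for a call. Probe set 220192_x_at was 1.59-fold higher (0.67 ± 0.22), and 214404_x_at was 1.46-fold higher (0.54 ± 0.28) with overlapping groups. The dim 214403_x_at gave -0.10 ± 0.56, and 213442_x_at, which did not pass the filter, went from 1.38, 1.32 and 1.37 to 0.505, 0.132 and 0.765. The brighter probe sets of SPDEF were thus all higher, 213441_x_at at an adjusted p of 0.0436 in limma but short of 2-fold. The dim 214403_x_at and the untested 213442_x_at did not go that way, and none of the 4 tested was called.

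Side by side, 6 of 8 effectors and 1 of 2 transcription factors rose, and 1 effector fell. Over all tested genes 3.37% rose and 2.17% fell. Nothing is read from these counts, since the genes were picked with this comparison in view. ATOH1 moved in the direction of AGR2, AGR3, TFF1, TFF3, FCGBP and HEPACAM2 and in the opposite direction from TFF2, and the 3 brighter probe sets of SPDEF differed by 0.54 to 0.67. The 6 arrays form 2 groups, so no correlation between factors and effectors was computed. Within the resistant group, array 3 had the highest signal for 11 of 15 member probe sets, ATOH1 and all 5 of SPDEF among them, but it was also the highest of the group for 48.2% of all tested probe sets. Within the parental group no array stood out in this way, being the highest for 5, 4 and 6 of the 15.

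**Figure D2:**
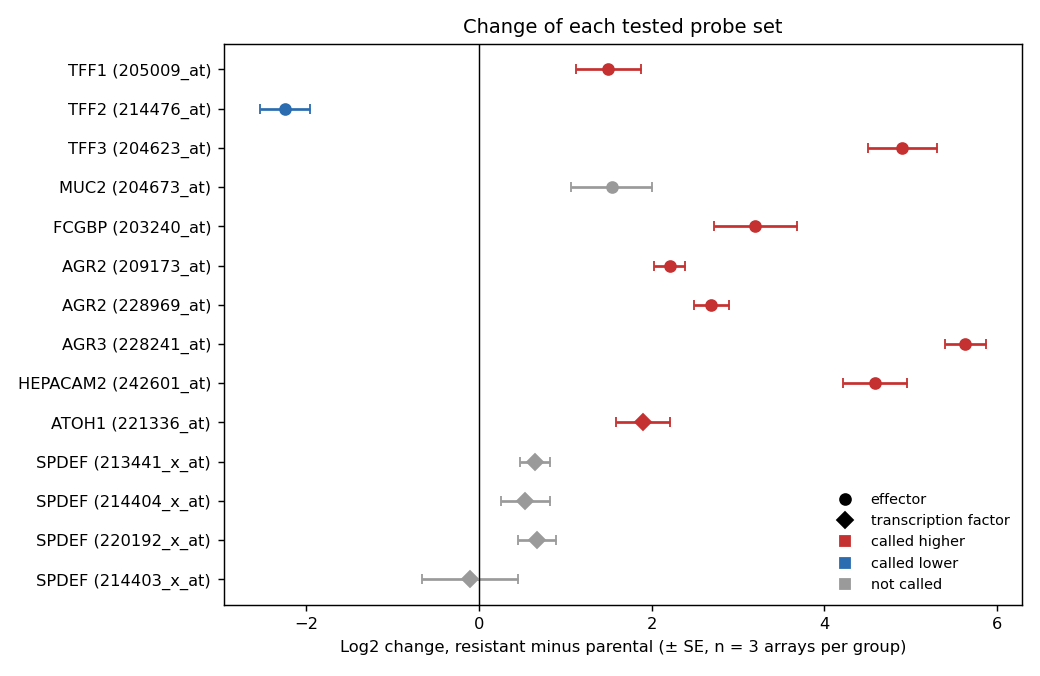
Log2 change, resistant minus parental (± SE, n = 3 arrays per group), of the 14 tested probe sets, with effectors as circles, transcription factors as diamonds, called increases in red, the called decrease in blue and other probe sets in grey. AGR3 (5.63), TFF3 (4.90) and HEPACAM2 (4.58) lie farthest to the right, ATOH1 at 1.90, the brighter SPDEF probe sets at 0.54 to 0.67, and TFF2 alone lies far to the left, at -2.24.

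ATOH1 binds E-boxes (CANNTG), and the promoters of the members, whether or not they rose, were searched for E-boxes and other motifs. RefSeq sequence of build GRCh38.p14 held promoters for 7 of the 10 genes, with 2 start sites for HEPACAM2, and none was matched for TFF1, TFF2 and TFF3. The 7 include ATOH1 itself, and MUC2 and SPDEF, which were not called. In the 250 bases before the start, 7 of 8 member promoters held an E-box, against 61.8% of 35116 promoters, and the exception was SPDEF. The CAGCTG form, which is itself an E-box, was found in 3 of 8, against 14.0%, once each in AGR2, HEPACAM2 and MUC2. The ETS core GGAA was in 8 of 8 (92.7% of all promoters) and GGAT in 6 of 8 (70.7%), both strands counted. Neither CCGGAT (5.85%) nor the forkhead core TGTTTAC (2.98%) was found on either strand of these windows, and TATAAA on the gene's strand was in 1 of 8 (6.8%). A match is a run of letters and no measured binding.

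The promoters of the neighbours AGR2 and AGR3, and those of HEPACAM2 and MUC2 with a CAGCTG, are shown 5′ to 3′ on the strand of the gene, ending 1 base before the start. Capitals mark CAGCTG, or TATAAA in AGR3. They are chr7:16805000-16805249 (minus strand) for AGR2, chr7:16881984-16882233 (minus strand) for AGR3, chr7:93232199-93232448 (minus strand) for HEPACAM2 and chr11:1074624-1074873 (plus strand) for MUC2.
AGR2: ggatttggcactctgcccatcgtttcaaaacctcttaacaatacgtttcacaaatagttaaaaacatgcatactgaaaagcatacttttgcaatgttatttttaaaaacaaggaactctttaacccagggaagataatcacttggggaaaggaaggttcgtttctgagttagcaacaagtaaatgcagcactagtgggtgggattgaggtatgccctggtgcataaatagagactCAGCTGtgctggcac
AGR3: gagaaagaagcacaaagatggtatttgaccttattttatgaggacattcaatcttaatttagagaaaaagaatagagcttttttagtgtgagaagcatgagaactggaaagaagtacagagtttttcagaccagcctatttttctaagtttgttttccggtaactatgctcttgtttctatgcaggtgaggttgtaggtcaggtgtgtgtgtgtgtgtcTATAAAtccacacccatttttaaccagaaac
HEPACAM2: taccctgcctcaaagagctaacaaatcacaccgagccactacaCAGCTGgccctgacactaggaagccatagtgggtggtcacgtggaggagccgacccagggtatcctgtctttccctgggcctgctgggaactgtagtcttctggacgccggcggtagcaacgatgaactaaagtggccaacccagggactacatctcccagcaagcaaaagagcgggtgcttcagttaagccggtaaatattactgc
MUC2: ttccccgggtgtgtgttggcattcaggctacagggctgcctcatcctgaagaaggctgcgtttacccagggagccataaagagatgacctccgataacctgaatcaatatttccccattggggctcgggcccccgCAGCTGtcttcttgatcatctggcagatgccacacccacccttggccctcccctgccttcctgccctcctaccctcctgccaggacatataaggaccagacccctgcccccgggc
The CAGCTG begins at -15 in AGR2, -207 in HEPACAM2 and -115 in MUC2, counted back from the start, and the TATAAA of AGR3 begins at -31. AGR2 and AGR3 share neither of these motifs in this window, and both are poor in G and C (40.4% and 36.4%, where the median of all promoters was 58.0%).

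Since AGR2 and AGR3 are neighbours, as are the trefoil genes, the tested genes around them were compared, 10 for each group in RefSeq order. Around AGR2 and AGR3 on chromosome 7, 0 genes rose and HDAC9, a histone deacetylase, fell 2.20-fold (-1.14 ± 0.20, adjusted p = 0.00784 in limma). At an unadjusted p below 0.05 in limma, 1 was higher and 2 were lower, and the methods' t-test called 0. SOSTDC1 was 2.34-fold lower, from a mean of 19.2 to 7.24, and was not called (-1.22 ± 0.41, adjusted p = 0.0883 in limma). Over all tested genes, 3.37% rose and 2.17% fell. The genes next to the pair, the tetraspanin TSPAN13 on one side and the noncoding LOC101927609 on the other, gave 0.17 ± 0.11 and 0.24 ± 0.30, and the aryl hydrocarbon receptor AHR 0.76 ± 0.22 (adjusted p = 0.0526). The median change of the 10 genes was 0.17. No gene tested beside AGR2 and AGR3 was thus called higher. The call of HDAC9 ended with the offset (1.99-fold) and by the methods' t-test.

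Around the trefoil genes on chromosome 21, 0 of 10 tested neighbours rose and 1 fell, with a median of 0.20. At an unadjusted p below 0.05 in limma, 2 were higher and 2 lower, and the methods' t-test called 0. ABCG1, a cholesterol transporter next to TFF3, gave 20.8, 25.4 and 7.12 in parental and 5.31, 3.03 and 4.93 in resistant cells, and fell 3.62-fold (-1.86 ± 0.42, adjusted p = 0.0236 in limma). Of its 4 tested probe sets 1 was called, and the call ended without any array but parental array 3 (3.13 and 2.84-fold lower without parental arrays 1 and 2, 4.03, 3.04 and 3.88-fold without resistant arrays 1, 2 and 3), without the intensity trend and by the methods' t-test, while without parental array 3 ABCG1 was 5.35-fold lower. RSPH1, on the other side of TFF1, gave 0.29 ± 0.25. In gene order the changes therefore ran from -1.86 at ABCG1 through 4.90 at TFF3, -2.24 at TFF2 and 1.50 at TFF1 to 0.29 at RSPH1.

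Next to MUC2 on chromosome 11, the gel-forming mucin gene MUC5AC, known from gastric surface cells, rose, and the other 9 tested neighbours were not called. Its main probe set gave 0.802, 0.141 and 0.531 in parental and 3.41, 4.10 and 3.23 in resistant cells, a 9.11-fold rise (3.19 ± 0.60, adjusted p = 0.0103 in limma). The other MUC5AC probe set gave 1.05, 0.805 and 1.19 in parental and 1.67, 0.811 and 1.17 in resistant cells. Its change was 0.22 ± 0.43 (adjusted p = 0.78 in limma). It had the higher signal on every parental array, so the main probe set was the brighter one only through its resistant signals. The rise of MUC5AC was thus seen only in the probe set chosen in this way. The rise was 4.28-fold with the offset, 5.46-fold without parental array 2 and 13.0-fold without parental array 1, and the call was lost without any of the resistant arrays (9.31, 8.50 and 9.57-fold).

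**Figure D3:**
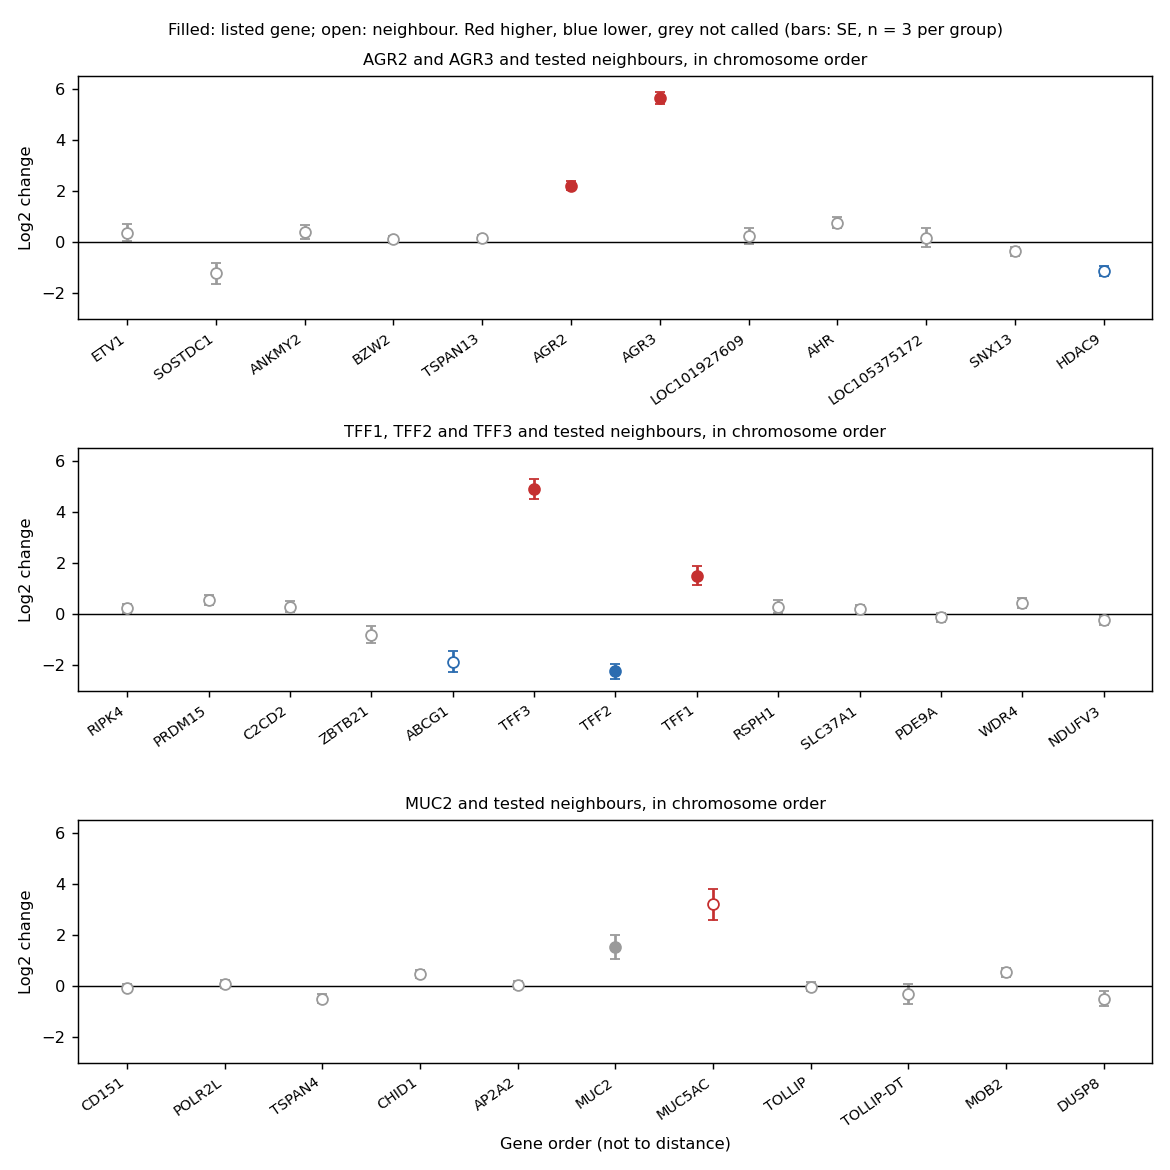
Log2 change (resistant minus parental, ± SE, n = 3 arrays per group) of members (filled) and of the nearest tested genes (open) in chromosome order, for AGR2 and AGR3, the trefoil genes and MUC2, with called increases in red and called decreases in blue. The filled points of AGR2 (2.21) and AGR3 (5.63) stand above neighbours between -1.22 and 0.76, TFF2 (-2.24) lies between TFF3 (4.90) and TFF1 (1.50), and MUC5AC (3.19) is the only red open point.

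The wider goblet cell programme was read from 18 further genes, of which 12 were tested. In this list 2 rose and 0 fell, where 3.37% and 2.17% of all tested genes did, and the median change was 0.76. At an unadjusted p below 0.05 in limma, 9 were higher and 1 was lower, and the methods' t-test called 0. ST6GALNAC1, the sialyltransferase that makes the sialyl-Tn antigen of mucins, gave 1.41, 1.20 and 1.84 in parental and 5.97, 5.08 and 8.79 in resistant cells, and rose 4.42-fold (2.14 ± 0.27, adjusted p = 0.00131 in limma). CAPN9, a calpain of the digestive tract, rose from 0.0991, 0.133 and 0.611 to 2.05, 1.91 and 3.30 (3.55 ± 0.78, adjusted p = 0.0205). With so low a parental signal its fold was not stable, being 11.7 as fitted, 3.81 with the offset, 6.20 with the 25th percentile of each array as a floor and 20.4 without parental array 3, and the call ended without any of the resistant arrays (12.5, 13.0 and 9.88-fold).

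At the adjusted p alone, with no fold required, 6 of the 12 were higher, where 7.37% of all tested genes were. Nothing is read from this count or from the counts before it, since the list was chosen with earlier results of these data known. The further 4 were GCNT3, a core mucin glycan transferase, ERN2, the stress sensor of mucus-secreting epithelia, SYTL2, a protein of vesicle exocytosis, and GALNT12, which starts mucin glycans. Their changes were 0.65 ± 0.16, 0.85 ± 0.19, 0.59 ± 0.14 and 0.71 ± 0.19. WFDC2, of the same list, went the other way, from 29.3, 24.4 and 36.3 in parental to 16.4, 17.7 and 22.8 in resistant cells. Its groups did not overlap, and its change of -0.66 ± 0.19 (adjusted p = 0.053 in limma) was not called. REG4, a secreted lectin-like peptide, gave 0.514, 0.0703 and 1.71 in parental and 2.44, 3.08 and 4.17 in resistant cells (3.00 ± 0.94, adjusted p = 0.0711), and its dimmer probe set was called (4.33 ± 1.04). The 7.99-fold difference of REG4 was 3.37-fold and not called without parental array 2, 3.38-fold and called with the offset, and 16.6-fold and called without parental array 3. Without the latter array BCAS1 passed as well (2.03-fold), so that 4 of the 12 were called. Leaving out that array also raised the calls over all 26563 tested probe sets, from 735 to 1242 higher, so the added calls are not particular to this list.

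The label of the list was set against the most typical products of goblet cells. CLCA1, ZG16, RETNLB and ITLN1, which goblet cells secrete, did not reach the filter. Their means went from 0.465, 0.570, 0.315 and 0.942 array medians in parental to 0.695, 1.05, 0.872 and 0.757 in resistant cells, with groups that overlapped for CLCA1, ZG16 and ITLN1. RETNLB gave 0.595, 0.164 and 0.186 in parental and 1.04, 0.651 and 0.930 in resistant cells, without overlap, and was not tested. SPINK4, which was tested, gave 0.48 ± 0.45. In resistant cells these 4 untested genes thus had means at or below about the array median, and MUC2 a mean of 2.00 ± 0.425 (SD, n = 3). The table holds no detection calls, so whether these dim genes were expressed was not settled.

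Regulators of the secretory lineage other than ATOH1 and SPDEF were mostly not called. Of 12 tested, 1 rose and 0 fell, where 3.37% and 2.17% of all tested genes did, with a median of 0.00. At an unadjusted p below 0.05 in limma, 4 were higher and 1 was lower, and the methods' t-test called 0. FOXA2, a forkhead factor of the endoderm, gave 0.324, 0.805 and 0.513 in parental and 6.35, 6.74 and 5.49 in resistant cells, and rose 12.1-fold (3.59 ± 0.35, adjusted p = 0.00034 in limma), or 6.48-fold with the offset. Its dimmer probe set was 62.6-fold higher (5.97 ± 0.59). The related FOXA1 and FOXA3 gave -0.31 ± 0.19 and 0.85 ± 0.30, the Notch target HES1 0.04 ± 0.16, KLF4 -0.04 ± 0.38, SOX9 -0.13 ± 0.14 and XBP1, of the unfolded protein response, -0.44 ± 0.30. NOTCH1 gave -0.24 ± 0.17. NOTCH2 gave -0.54 ± 0.14 (adjusted p = 0.0336 in limma), lower without overlap of the groups but short of 2-fold. Parental array 3 held the lowest signals of KLF4 (61.8, 61.2 and 19.1 on parental arrays) and XBP1 (99.0, 98.9 and 39.5), and without it their changes were -0.60 (adjusted p = 0.0068) and -0.88 (adjusted p = 0.000206), short of 2-fold. GFI1, NEUROG3, DLL1, DLL4 and CDX2 were too dim to be tested.

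Of 10 other mucin genes 5 were tested, of which MUC5AC alone rose, in 1 of its 2 probe sets, and 0 fell. Over all tested genes 3.37% rose and 2.17% fell. At an unadjusted p below 0.05 in limma, 2 of the 5 genes were higher and 1 was lower, and the methods' t-test called 0. The median was 0.67, which was the change of MUC4 and turned to -0.36 for this gene without parental array 3. The membrane mucin MUC13 gave 0.95 ± 0.20 (1.94-fold, adjusted p = 0.0165) and was called in 1 of its 2 probe sets, and 2.21-fold and called without parental array 1. The membrane mucin MUC20 gave -0.74 ± 0.18, and of its 4 probe sets a dimmer one was called lower (-1.29 ± 0.32, adjusted p = 0.0313). Among 8 tested disulfide isomerases and oxidases, the enzymes that work beside AGR2 in the endoplasmic reticulum, 0 rose and 0 fell (limma, 4 higher and 0 lower at an unadjusted p below 0.05, and 0 by the methods' t-test), with a median of 0.21, or 0.02 with the probe sets of a gene averaged. TXNDC12, the other member of the anterior gradient family, gave -0.09 ± 0.16, P4HB 0.02 ± 0.09 and PDIA4 0.53 ± 0.16.

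Markers of other gut cells were compared in the same way, and most were too dim to be tested. Of 12 enterocyte markers 2 were tested, and DPP4, a brush border peptidase, rose 3.37-fold (1.75 ± 0.14, adjusted p = 9.76e-05 in limma), from 6.31, 6.41 and 6.92 to 21.7, 21.9 and 22.6. The cytoskeletal VIL1 gave 0.80 ± 0.13, below the 2-fold needed. ANXA10, an annexin of gastric epithelium and 1 of 2 tested gastric surface markers, rose from 1.58, 6.30 and 11.6 to 90.2, 94.6 and 91.5 (18.9-fold, 4.24 ± 0.56, adjusted p = 0.00173), or 10.8-fold without parental array 1 and 29.2-fold without parental array 3. The other tested one, CTSE, gave -0.55 ± 0.24, and GKN1, GKN2, VSIG1 and CLDN18 were not tested.

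The neuroendocrine secretory chaperone SCG5, the only tested enteroendocrine marker, rose from 1.37, 0.492 and 0.115 to 4.12, 4.31 and 4.19 (9.86-fold, 3.30 ± 0.73, adjusted p = 0.021). It was 4.50-fold with the offset, 5.12-fold without parental array 3 and 17.7-fold without parental array 1, and the call was lost without any of the resistant arrays (9.97, 9.74 and 9.88-fold) and without the intensity trend in the variance. CHGA, CHGB, SCGN, PYY and GCG stayed below the filter. Of the Paneth cell markers only LYZ was tested (0.74 ± 0.10, 1.67-fold, not called), and DEFA5, DEFA6, PLA2G2A and REG3A were too dim.

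Of 3 tested stem cell markers, 0 rose (limma, 1 higher at an unadjusted p below 0.05, and 0 by the methods' t-test) and SMOC2 fell from 6.20, 3.27 and 1.24 to 0.369, 0.0755 and 0.478 (12.3-fold, -3.63 ± 0.83, adjusted p = 0.0239). Its call was lost without parental array 1 or 2 (8.48 and 11.7-fold) or resistant array 1 or 2 (15.4 and 6.96-fold) and without the intensity trend, and it was 19.0-fold lower without parental array 3 and 4.48-fold with the offset. LGR5 gave 1.27 ± 0.36 (adjusted p = 0.0525) and passed without parental array 3 (3.13-fold), with the offset (2.01-fold) and with no scaling beyond MAS5 (2.28-fold), and ASCL2 gave 0.23 ± 0.15. CAPN9, MUC5AC, FOXA2 and SCG5 passed the filter only through their resistant signals, with parental means of 0.281, 0.491, 0.547 and 0.659. Of the 7 genes of these lists that rose, DPP4 alone kept its call by the methods' t-test, and SMOC2 lost its own.

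**Figure D4:**
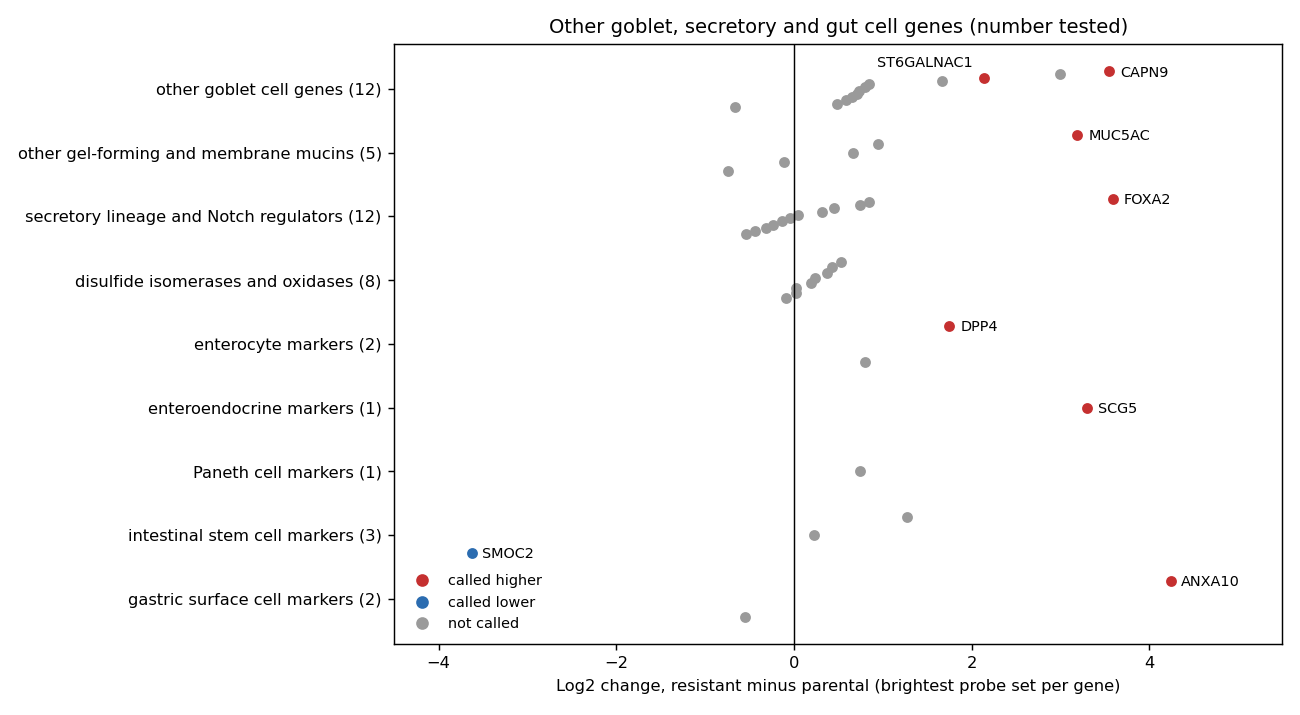
Log2 change (resistant minus parental) of the brightest probe set of each tested gene in the lists of other goblet cell, mucin, regulator, disulfide isomerase and gut cell marker genes, with the number tested after each list name, called increases in red and the called decrease in blue. Of the 46 tested genes 7 were called higher (ST6GALNAC1, CAPN9, MUC5AC, FOXA2, DPP4, SCG5 and ANXA10) and SMOC2 lower. Over all tested genes 3.37% were called higher and 2.17% lower. The 8 disulfide isomerases and oxidases lie between -0.09 and 0.53.

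Genes with the pattern most like AGR3 were found by the root mean square distance between log2 signals over the 6 arrays, each centred on its own mean. The nearest were LINC00261, a long noncoding RNA (distance 0.302), ZFYVE16, which encodes an endosomal protein (0.365), FOXA2 in its dimmer probe set (0.442), CEMIP, of hyaluronan breakdown (0.443), and CEACAM5, the carcinoembryonic antigen (0.492). Their parental means lay between 0.0864 (FOXA2) and 1.30 (CEMIP) and their resistant means between 4.55 (LINC00261) and 36.1 (CEMIP) array medians. Like AGR3, these 5 were dim in parental cells. The nearest to TFF2 were the serine protease PRSS23 (0.240), MBLAC1 (0.241), the galectin LGALS1 (0.316), PMEPA1, a target of TGF-beta signalling (0.332), and LOC93429 (0.342), with decreases between 4.63 and 5.70-fold. These genes were picked for their pattern, so the values are a description over 6 arrays.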

How the data were processed

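Gene expression was measured with Affymetrix HG U133 Plus 2.0 arrays in 3 samples of parental and 3 of MTX-resistant Caco2 cells, and the titles of the samples gave group and replicate number. The authors deposited 1 linear signal intensity per probe set and array. The submitters' processing notes name MAS5. Its version is not given in the sources used here, nor is the target it scaled to. Array medians of the deposited signals lay between 10.6 and 12.8, and 0 pairs of arrays were identical.

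Without the 62 control probe sets, 54613 remained. Exact zeros (10 values) were set to 0.05. Signals were divided by their array's median and log2 transformed, and those whose mean over all arrays reached 1 array median were tested. Names were taken from the platform annotation, with Entrez identifiers matched to RefSeq, where 41091 probe sets had 1 symbol, 1801 several and 11721 were unnamed here. Every probe set of a member was read, and other genes by their brightest tested probe set. Groups were compared with limma 3.58.1 in R 4.3.3 (lmFit, and eBayes with an intensity trend) in two-sided tests, adjusted by Benjamini-Hochberg over all tested probe sets, and the fit was checked on simulated data. The number of arrays limited the precision.

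The members and gene lists were chosen with earlier results of these data known. Genes named were the members, up to 4 called genes of each list, the tested neighbours, and the 5 profiles most like those of the members with the largest increase and decrease. Listed genes named though not called, and the motifs, were chosen after values were seen. Alternatives tried were quantile normalization and no scaling beyond MAS5, no filter and a filter at 3 array medians, a floor at the 25th percentile, an offset of 0.5, a fit without the intensity trend, a block for the replicate number, leaving out each array, the methods' t-test (named in the study without settings, run here unpaired with equal variances on the same values) and no fold threshold. Medians of lists were also taken after averaging the probe sets of a gene.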

Additional observations from a re-analysis of the deposited data

How the results depend on the processing

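Changes of the 14 tested member probe sets were recomputed 206 times under the alternatives, of which 204 kept their sign, 202 moved by less than the spread between replicates (1 SD) and 0 called changes turned. The 2 that changed sign were of the dim SPDEF probe set 214403_x_at. The settings without the filter, with the stricter filter, without the intensity trend, with the replicate block and by the methods' t-test left each log2 difference unchanged. Their changes are among the 206 and could neither move nor turn, so these counts overstate how far the changes were tried. Of the member probe sets, 8 were called higher and 1 lower, and 3 and 0 by the methods' t-test. With each array left out, 7 to 8 were higher and 1 was lower. Over all tested probe sets, 735 were higher and 505 lower, 127 and 61 by the methods' t-test, 1528 and 1135 with no fold threshold, and 399 to 1242 and 309 to 998 with each array left out, the highest counts without parental array 3. Among genes of the other lists, 7 were higher and 1 lower, 4 and 0 with the filter at 3 array medians, 1 and 0 by the methods' t-test, 14 and 3 with no fold threshold, 0 lower without the intensity trend, and 4 to 10 higher and 0 to 1 lower with each array left out. Among the chromosomal neighbours, 1 was higher and 2 lower, 0 higher with the stricter filter, 1 lower without the intensity trend or with the offset, 0 and 0 by the methods' t-test, and 0 to 1 higher and 1 to 3 lower with each array left out. Averaging the probe sets of each gene, the median of the disulfide isomerases was 0.02 in place of 0.21 and that of the Paneth cell markers 0.48 in place of 0.74. The cause of these differences was not tested.

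The replicate numbers did not pair the arrays, as deviations of same-numbered arrays correlated at -0.018, -0.022 and -0.016. With the replicate number as a block, 721 probe sets were higher and 484 lower, 8 and 1 of the members' and 8 and 1 of the listed genes, and 1 and 3 of the neighbours. Since the table holds no detection calls, signals below the array median limit the folds of genes that were dim in parental cells.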
